A study of Mus musculus with 2 samples.

Results

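Imprinted genes are genes that are transcribed mainly from the allele inherited from the mother or mainly from the allele inherited from the father. A set of 39 such mouse genes, which lie in 16 imprinted clusters or single loci, was looked up by gene symbol in a table of nascent transcription in C2C12 myoblasts, and every RefSeq entry of a matching symbol was taken. The table lists 35 of the 39 genes, with 63 of its 24165 entries. Phlda2, Dio3, Ndn and Nap1l5 had no entry to analyse; in the mm9 annotation they span 997, 2030, 1652 and 1893 bases, and the table is described as holding genes of at least 2 kb, which Dio3 exceeds on this annotation.

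C2C12 cells are an immortal mouse myoblast line, muscle precursors that can fuse into fibres. The cells were untreated, with no genotype change named in the labels, and were grown to 80% confluency, and 2 replicate GRO-seq libraries were made from them. In GRO-seq, polymerases that are already engaged on DNA run on in isolated nuclei with a bromouridine label, so that a read marks a transcribing polymerase and its strand, and not a stable RNA. The authors pooled the libraries and gave each RefSeq entry a single gene activity in RPKmM. It counts sense-strand reads from 1 kb after the transcription start site to the transcript end, scaled to mappable length and library size. Entries whose density was not significantly above the level in gene deserts, by Poisson statistics, hold the word Inactive. The call rests on read numbers, so a longer counted stretch can pass at a lower density and Inactive does not mean no transcription.

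A pooled value has no standard deviation, so no test between genes was possible and differences between them are descriptions. Where a ratio of activities is given, its bounds cover only the rounding of the table to 2 decimals. The table gives no read numbers, so the reads behind each value were not estimated here. Both libraries come from a single line. The table holds no allele information, and the parental allele named for a gene below is general knowledge about mouse tissues that was not measured in these cells.

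The cells carried the marks of their label. Each of 7 myoblast genes was active, from 2.39 RPKmM for Myod1 to 146.13 for Vim, and so was each of 5 genes of differentiated muscle, from 0.14 for Myh4 to 6.85 for Acta1. Of the genes of other tissues, none of 3 trophoblast genes was active, and 1 of 3 blood genes and 1 of 2 hepatocyte genes were active, at 0.01 and 0.02. Among 4 neuronal genes Snap25 and Rbfox3 were inactive, Syt1 stood at 0.01 and Tubb3, a tubulin, at 6.01.

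Imprinted genes lie in clusters that share an imprinting control region, a stretch of DNA that is methylated on a single parental allele in the germ line and keeps that state in the embryo. In several clusters the unmethylated control region is the promoter of a long noncoding RNA, whose transcription silences neighbouring coding genes on the same chromosome; at H19 and Igf2 it is instead bound by CTCF, which blocks enhancers from reaching Igf2. Many of these genes act on growth of the embryo and placenta, with paternally expressed genes such as Igf2 tending to promote growth and maternally expressed genes such as Igf2r and Grb10 tending to restrain it.

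Several imprinted transcripts carry microRNAs, and the mature sequences of those within active members are shown first. H19, the most active member, holds Mir675 on its own strand at chr7:149762969-149763052 (mm9), beginning 996 bases from the start of H19. Igf2 holds Mir483 and Mest, an active gene, holds Mir335, also on the strand of the host. Below, sequences are those of RefSeq (GRCm38.p6), read 5′ to 3′, and the capitals mark the seed, bases 2 to 8, which pairs with target RNAs.
miR-675-5p: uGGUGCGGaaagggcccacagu
miR-675-3p: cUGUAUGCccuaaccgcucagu
miR-483-5p: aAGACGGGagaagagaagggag
miR-483-3p: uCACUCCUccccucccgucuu
miR-335-5p: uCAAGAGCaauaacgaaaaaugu
miR-335-3p: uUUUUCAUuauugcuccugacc
The 6 seeds differ from each other.

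The largest group of microRNAs lies between Dlk1 and Dio3 on chromosome 12, where none of the listed host transcripts was active. The mm9 annotation places 57 microRNA genes in this interval, 52 of them on the plus strand, the strand of Meg3, Rian and Mirg, together with 23 snoRNA genes. Mature sequences were found for 48 of these genes. Shown are miR-770-5p from within Meg3, miR-127-3p and miR-433-3p, which lie opposite Rtl1 and are complementary to its transcript, miR-370-3p from Rian, miR-410-3p from Mirg, and miR-379 and miR-411 with miR-1193 for the seeds they share, again with bases 2 to 8 in capitals.
miR-770-5p: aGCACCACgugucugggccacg
miR-127-3p: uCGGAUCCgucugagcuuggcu
miR-433-3p: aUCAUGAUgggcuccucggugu
miR-370-3p: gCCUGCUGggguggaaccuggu
miR-410-3p: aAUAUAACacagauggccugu
miR-379-3p: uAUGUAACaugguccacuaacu
miR-411-3p: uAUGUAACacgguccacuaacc
miR-379-5p: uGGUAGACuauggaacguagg
miR-1193-5p: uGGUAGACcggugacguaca
miR-379-3p and miR-411-3p share the seed AUGUAAC, and miR-379-5p and miR-1193-5p share GGUAGAC. Over all 95 mature sequences from the members and the Dlk1 to Dio3 interval there were 90 different seeds, of which 5 occurred in a pair of sequences and none in more. Shared seeds were thus the exception. All 5 pairs lie within the Dlk1 to Dio3 interval, but so do all of these sequences except those of miR-675, miR-483 and miR-335.

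The promoters of members with contrasting activity are shown next, as 250 bases before to 50 after the start (RefSeq, GRCm38.p6), each read in the direction of its gene, with every CpG, the dinucleotide that carries imprinted methylation, in capitals. Peg3 is the most active paternally expressed member, Igf2r and Airn are transcribed across each other on opposite strands, and Meg3 is an inactive long noncoding RNA.
Peg3 promoter, chr7:6730370-6730669, minus strand: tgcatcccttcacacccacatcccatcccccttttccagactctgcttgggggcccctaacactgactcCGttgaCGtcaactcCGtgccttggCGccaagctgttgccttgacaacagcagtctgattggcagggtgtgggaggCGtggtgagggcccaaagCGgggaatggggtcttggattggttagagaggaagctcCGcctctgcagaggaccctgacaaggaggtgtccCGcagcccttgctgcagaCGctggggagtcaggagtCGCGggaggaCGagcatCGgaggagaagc
Igf2r promoter, chr17:12769657-12769956, minus strand: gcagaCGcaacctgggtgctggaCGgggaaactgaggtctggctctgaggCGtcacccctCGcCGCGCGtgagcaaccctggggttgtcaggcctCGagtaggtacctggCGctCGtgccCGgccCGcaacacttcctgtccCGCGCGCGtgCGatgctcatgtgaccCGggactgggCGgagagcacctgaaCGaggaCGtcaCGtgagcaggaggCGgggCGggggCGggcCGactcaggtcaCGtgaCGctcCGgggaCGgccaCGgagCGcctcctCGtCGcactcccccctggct
Airn promoter, chr17:12741061-12741360, plus strand: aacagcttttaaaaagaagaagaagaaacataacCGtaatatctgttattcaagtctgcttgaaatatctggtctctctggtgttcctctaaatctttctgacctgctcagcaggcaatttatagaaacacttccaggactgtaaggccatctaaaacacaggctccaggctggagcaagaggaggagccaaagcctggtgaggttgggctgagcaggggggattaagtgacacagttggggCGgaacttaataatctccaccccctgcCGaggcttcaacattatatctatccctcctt
Meg3 promoter, chr12:109540746-109541045, plus strand: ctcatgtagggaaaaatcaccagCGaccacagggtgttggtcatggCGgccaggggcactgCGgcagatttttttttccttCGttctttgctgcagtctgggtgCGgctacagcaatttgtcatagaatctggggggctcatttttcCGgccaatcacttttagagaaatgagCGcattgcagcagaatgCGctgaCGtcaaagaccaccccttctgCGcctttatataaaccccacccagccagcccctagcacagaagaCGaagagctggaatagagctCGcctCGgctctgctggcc
The Igf2r window holds 34 CpG and is 70.7% G and C, the Peg3 window and this Meg3 window, the richer of 2 for that gene (the other holds 1), hold 13 each, and the Airn window holds 3 and is 45.7% G and C. Over all 32851 promoters of that length the median was 7 CpG and the upper quartile 20. CpG more than 50 bases after a start were not counted, so the numbers describe these windows and not whole control regions. The window of Usp29, which is transcribed away from Peg3, covers 263 of the same bases on the other strand.

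Motifs were counted on both strands in the 47 promoter windows found for 31 of the 39 members, where several windows belong to the same gene and overlap. TGCCGC, the hexamer bound by the imprint-protecting factor ZFP57 when methylated, was in 10 member windows (21.3%) and in 11.6% of all promoters. The genes with this hexamer were Nnat, Mest, Nap1l5, Zim1, Snrpn, Igf2, Plagl1, Grb10 and Meg3. The GC box GGGCGG was in 23 windows (48.9%) against 35.7% of all promoters, the TATA sequence TATAAA in 12 (25.5%) against 13.6%, and the E-box CAGCTG in 4 (8.51%) against 16.3%. A longer core motif of CTCF was in no member window and in 0.122% of all promoters. TGCCGC and GGGCGG can cover some of the same bases, and a match describes letters, not a bound site.

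Imprinted genes were about as often active in myoblasts as the table as a whole. Of the 63 entries, 47 (74.6%) were active, where 70.2% of all entries in the table were. By gene, 24 of 35 (68.6%) had an active entry, against 68.7% of all gene symbols. An activity of at least 1 RPKmM was reached by 23 entries (36.5%), against 32.3% of all entries, and an activity of at least 10 by 5 entries (7.94%), against 2.03% of all entries. Those 5 entries belong to H19, a noncoding RNA, and to Gnas, which encodes the stimulatory G protein subunit Gs alpha and holds 4 of them, so the top class rests on 2 genes.

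The active entries had a median of 0.91 RPKmM (quartiles 0.17 and 3.575), and for the active entries of all other genes it was 0.87 (quartiles 0.22 and 1.99). The ratio of the medians was 1.05, and it was 0.810 when Gnas, whose median of 14.58 was the highest of any cluster, was left out, so its direction depends on that gene. The upper quartile also rests on Gnas: over the 40 other active entries the quartiles were 0.0575 and 1.9575, so that without it the members reached lower than the rest of the table at the lower quartile and about as high at the upper. A low value in such bulk cells can come from few transcribing cells or from little transcription in each, which cannot be told apart here.

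**Figure D1:**
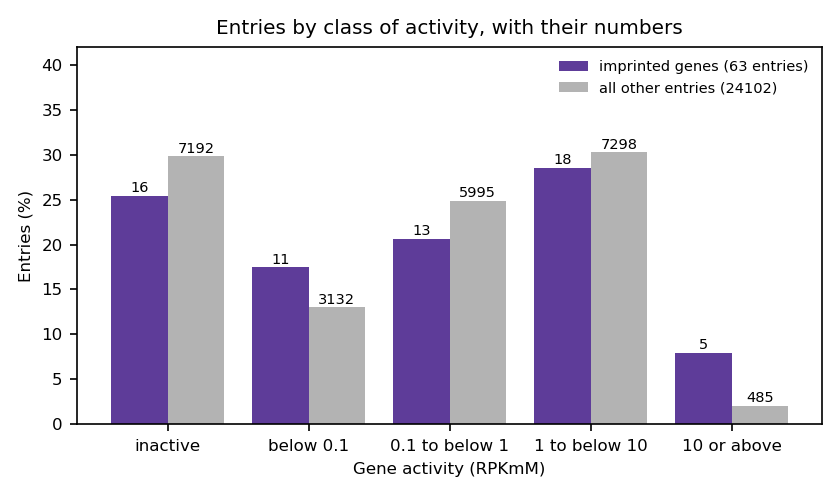
Share of RefSeq entries (%, y axis) in each class of gene activity (RPKmM, x axis) for the 63 entries of imprinted genes (purple) and the 24102 other entries (grey), with the number of entries above each bar. The shares of imprinted entries were higher below 0.1 (17.5% against 13%) and at 10 or above (7.94% against 2.01%), and lower in the other 3 classes.

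By their most active entry, 11 of the 35 genes were inactive, 6 lay below 0.1, 6 from 0.1 to below 1 and 12 (34.3%) at 1 or above, where 31.6% of all gene symbols reached 1. Of 18 listed genes known for paternal expression 14 (77.8%) were active, and of 15 known for maternal expression 8 (53.3%) were active, on either side of the 68.7% over all symbols, with Gnas and Grb10, whose expressed allele differs by promoter or tissue, in neither group and Ube3a and Trappc9, known for maternal expression in brain, in the maternal group. The active entries of paternally expressed genes had a median of 0.805 and those of maternally expressed genes 0.71, but with a single entry per gene, its most active, the medians were 0.96 and 2.69, so the order of the groups turned with the counting. It turned with geometric means over the same entries too, which were 0.478 and 0.766 with a pseudocount of 0.01. The order by gene also rests on single genes, since the maternal median by gene was 0.91 without Ube3a and 2.69 without both Ube3a and Trappc9. All 7 genes for noncoding RNAs were listed: H19, Kcnq1ot1, Airn and Peg13 were active, each at 1 or above, while Meg3, Rian and Mirg, all of the Dlk1 to Dio3 cluster, were inactive. Of the 28 listed coding genes 20 (71.4%) were active and 8 (28.6%) reached 1. With so few genes in a group and no replicate error, these shares are descriptions.

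**Figure D2:**
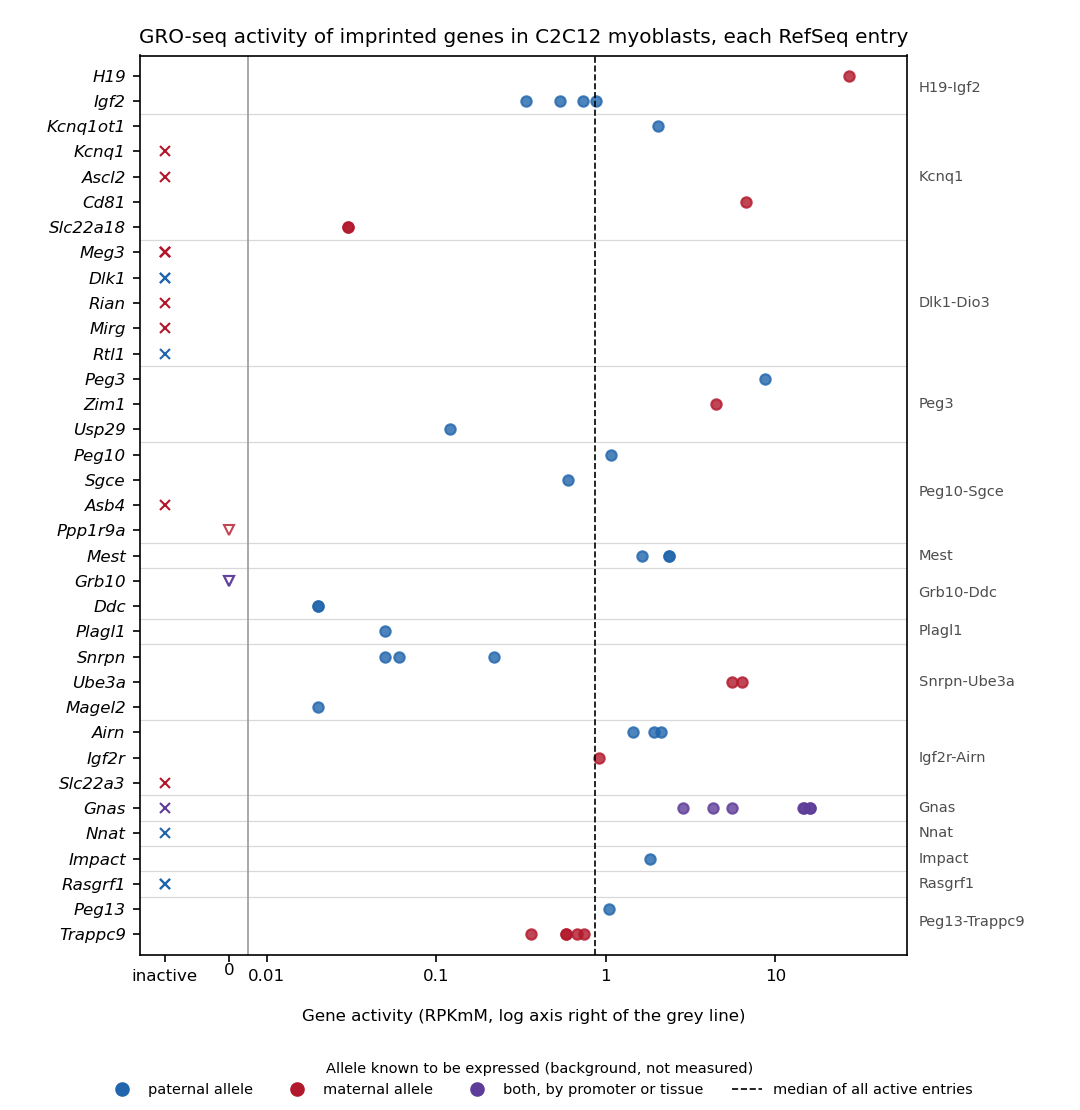
Gene activity (RPKmM, x axis, logarithmic right of the grey line) of each RefSeq entry of the 35 listed imprinted genes (y axis), grouped by cluster, with names at the right. Circles are active entries, triangles entries listed at 0, crosses inactive entries, colours the allele known to be expressed, and the dashed line the median of all active entries, 0.87. H19 stands at 27.08, Gnas reaches 16.04, and every entry of the Dlk1 to Dio3 cluster is inactive.

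At the distal end of chromosome 7, H19 and Igf2 stood far apart. H19 (chr7:149761434-149764048, mm9, minus strand), the maternally expressed noncoding RNA that hosts miR-675, had 27.08 RPKmM, above 99.2% of active entries, and was the most active member. Igf2, the paternally expressed insulin-like growth factor that acts in muscle differentiation, lies 72624 bases away on the same strand and had 4 entries at 0.34, 0.54, 0.73 and 0.88. H19 thus exceeded the highest Igf2 entry 30.8-fold (30.6 to 31.0 by rounding). The Igf2 entries differed 2.59-fold among themselves, and the highest lay above 50.3% of active entries. The H19 value rests on a short stretch, since the gene spans 2615 bases and the first kilobase is not counted, which leaves 1615. Of the genes next to the cluster, Nctc1, downstream of H19 on the same strand, had 0.03 and Th, the tyrosine hydroxylase gene beyond Igf2, was inactive.

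In the neighbouring Kcnq1 cluster the noncoding RNA was active and the gene it overlaps was not. Kcnq1ot1, a paternally expressed antisense RNA that begins inside Kcnq1 and silences the cluster in cis, had 2.04, above 75.6% of active entries. Kcnq1, a potassium channel subunit of heart and epithelia, was inactive over a span of 319797 bases. Because only sense reads were counted, transcription of Kcnq1ot1 does not enter the Kcnq1 value. Of the other listed coding members, Cd81, a cell surface tetraspanin maternally expressed chiefly in placenta and active in many tissues, had 6.71. Ascl2, a trophoblast transcription factor also maternally expressed chiefly in placenta, was inactive. Slc22a18, a maternally expressed transporter, had 0.03 in both entries. Cdkn1c, a growth-restraining cell cycle inhibitor between Kcnq1 and Slc22a18, was listed at 0; it was named after its value was seen.

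No listed entry of the Dlk1 to Dio3 cluster was called active. The 2 entries of Dlk1, a paternally expressed Notch ligand-like protein of progenitor cells, the 3 entries of Meg3, and the single entries of Rian, Mirg and the retrotransposon-derived Rtl1 were all inactive. Together with Dio3os, an RNA antisense to the deiodinase gene Dio3, they form 6 listed genes inactive in a row, chr12:110691033-111516278 (mm9), a stretch of 825 kb. The nearest active gene before it was Begain at 0.01, a gap of 399 kb, and the nearest after it Ppp2r5c at 0.88, a gap of 169 kb. Among 17578 listed genes placed on mm9 there were 2633 runs of inactive genes, with a median of 1 gene, and 125 were at least as long as this, up to 29 genes. The microRNA and snoRNA genes of the interval were not measured as entries of their own. What was measured is that the annotated hosts on both strands were not significantly above the gene desert background.

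**Figure D3:**
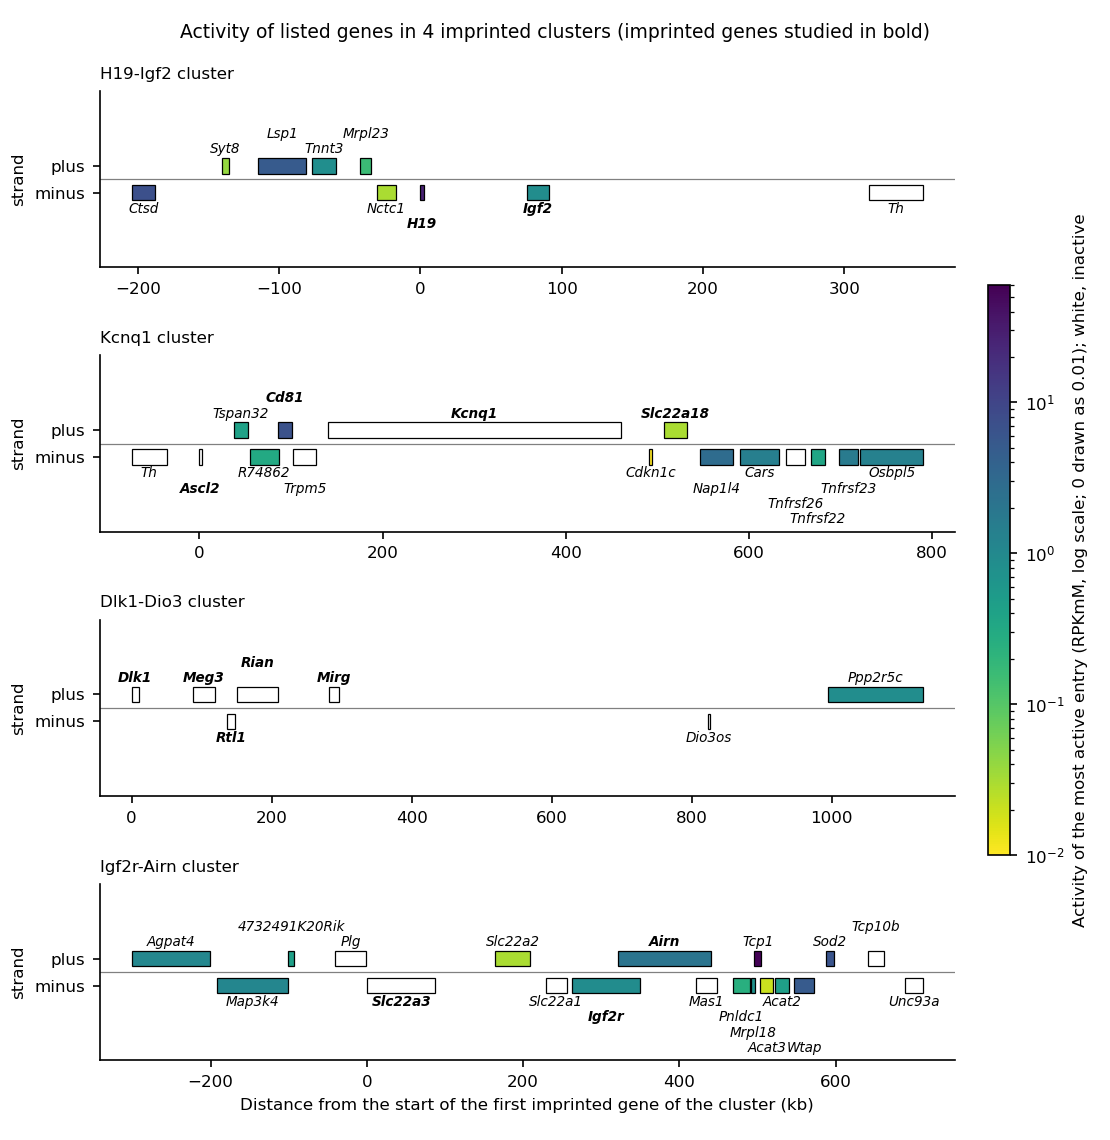
Position of the listed genes of 4 imprinted clusters and of genes up to 250 kb outside them (x axis, kb from the lowest position of the first imprinted gene) on the plus and minus strands, coloured by the activity of the most active entry (RPKmM, logarithmic colour scale) and white where inactive, with the imprinted genes studied in bold. H19 is dark at 27.08 beside Igf2 at 0.88, Kcnq1 is white over its length, and the Dlk1 to Dio3 row is white as far as Ppp2r5c at 0.88; Kcnq1ot1 has no position in the annotation used and is not drawn.

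At the proximal end of chromosome 7, the Peg3 cluster had the highest median after Gnas, 4.47 RPKmM. Peg3 (chr7:6656603-6683132, mm9, minus strand), a paternally expressed zinc finger protein that acts in muscle stem cells and growth, had 8.71, above 96.6% of active entries. Zim1, a zinc finger gene known for maternal expression, had 4.47, above 91.1%. The gene begins 7441 bases downstream of the end of Peg3 on the same strand, and how far polymerases beyond the end of Peg3 contribute to the Zim1 value was not tested. Usp29, a ubiquitin protease gene that starts in the promoter window of Peg3 printed above and runs the other way, had 0.12, so that Peg3 exceeded it 72.6-fold (69.6 to 75.8 by rounding). This was the widest ratio among the 8 pairs with both genes active. The 263 shared bases of promoter come from RefSeq in GRCm38.p6. The mm9 annotation holds only 2610 bases of Usp29, at chr7:6913871-6916480, so the stretch counted for its entry was not determined.

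On chromosome 6, the genes of the Peg10 and Sgce cluster ranged from 1.08 to inactive. Peg10, a paternally expressed gene derived from a retrotransposon and needed for the placenta, had 1.08, and Sgce, the epsilon sarcoglycan of the muscle membrane complex, had 0.6. Their starts lie 101 bases apart on opposite strands, and Peg10 exceeded Sgce 1.8-fold (1.78 to 1.82 by rounding). This divergent pair thus differed far less than Peg3 and Usp29 did. Ppp1r9a, a protein phosphatase regulator, was listed as active at 0, a value rounded down, and Asb4, a ubiquitin ligase adaptor, was inactive. Further along the chromosome, Mest, a paternally expressed hydrolase of mesoderm that hosts miR-335, had 1.64, 2.37 and 2.37 in its 3 entries, the highest above 79.5% of active entries.

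The members on chromosomes 10 and 11 were near the bottom of the active range. Grb10, an adaptor that restrains insulin and growth factor signalling and is expressed from the maternal allele in most tissues and the paternal allele in neurons, was listed at 0 in both entries. Ddc, a decarboxylase of neurotransmitter synthesis and paternally expressed in embryonic heart, had 0.02 in both. Plagl1, a paternally expressed zinc finger regulator of growth, had 0.05, above 14% of active entries. All 5 entries of these genes passed the background comparison and remained below 0.1.

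In the region of chromosome 7 orthologous to the Prader-Willi and Angelman region, activity lay mostly in Ube3a. Ube3a, a ubiquitin ligase that is imprinted in neurons and expressed from both alleles elsewhere, had 5.59 and 6.4, the higher above 94.7% of active entries. The 3 entries of Snrpn, a paternally expressed splicing protein gene, had 0.05, 0.06 and 0.22, and Magel2, a ubiquitin ligase regulator, had 0.02. Ube3a exceeded the highest Snrpn entry 29.1-fold (28.4 to 29.8 by rounding). The upstream reading frame Snurf, which shares the Snrpn locus, had 0.22, the long RNA Snhg14, which runs from Snrpn towards Ube3a, 0.32, and Ipw was inactive; these were named after their values were seen. The paternally expressed transcripts named here thus stood at or below 0.32 while Ube3a stood above 5.

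At Igf2r and Airn on chromosome 17 both strands were active. Airn (chr17:12934177-13052988, mm9, plus strand), a paternally expressed noncoding RNA, had 1.44, 1.93 and 2.12. Igf2r (chr17:12875272-12962530, minus strand), the maternally expressed receptor that carries Igf2 to degradation, had 0.91, above 51.3% of active entries. The genes overlap over 28354 bases, and the highest Airn entry exceeded Igf2r 2.33-fold (2.31 to 2.35 by rounding). Slc22a3, an organic cation transporter that Airn silences in placenta, was inactive. Of the genes next to the cluster, Plg, plasminogen of the liver, was inactive and so was Mas1, a receptor gene at the far end of Airn.

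Gnas on chromosome 2 was the member with the widest range. Its promoters yield the maternally expressed Nesp55, the paternally expressed XLas and Gs alpha, which is expressed from both alleles in most tissues. Of its 8 entries, NM_201616 and NM_001077510 had 16.03 and 16.04, NR_003258 had 14.69 and NM_001310083 had 14.58. NM_001077507, NM_022000 and NM_019690 had 5.53, 4.31 and 2.84, and NM_201617 was inactive. The entries share a locus, so a read can count in several of them, and the values are not independent. The 7 active entries fell into a group of 4 above 14 and a group of 3 below 6, with a 5.65-fold range. Nespas, an RNA on the opposite strand at the Gnas locus, had 3.09.

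Of the remaining loci, Impact, a paternally expressed regulator of translation, had 1.82, above 72.3% of active entries. Peg13, a paternally expressed noncoding RNA in an intron of Trappc9, had 1.04, and the 5 entries of Trappc9, a vesicle trafficking gene imprinted in brain, had 0.36, 0.58, 0.58, 0.68 and 0.74. The Trappc9 entries thus lay below the median of all active entries, 0.87, and Peg13 above it. Peg13 has no position in the annotation used, so its strand relative to Trappc9 was not determined. Whether reads of Trappc9 enter the Peg13 value was not tested. Nnat, a paternally expressed membrane proteolipid of neurons, and the 2 entries of Rasgrf1, a Ras exchange factor of brain, were inactive.

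In pairs of genes that overlap, adjoin or share a cluster, activity was uneven in 5 and within 4-fold in 5. Of 12 pairs examined both genes were listed in 10 and both active in 8. Among these 8 the more active gene exceeded the other by 1.37 to 72.6 times, with 3 pairs above 10 (Peg3 over Usp29, H19 over Igf2 and Ube3a over Snrpn) and 5 below 4. The latter were Mest over Copg2, a coatomer gene at 0.64 (3.7-fold, 3.67 to 3.74 by rounding), Airn over Igf2r, Peg10 over Sgce, Peg13 over Trappc9 (1.41-fold, 1.39 to 1.42), and Commd1 at 1.74 over Zrsr1 at 1.27, a splicing factor gene in its intron (1.37-fold, 1.36 to 1.38). In the other 2 pairs a gene was inactive: Kcnq1 beside Kcnq1ot1 at 2.04, and Nnat beside Blcap at 5.7, a host gene in which Nnat lies whole, over 2445 bases of overlap. Of the hosts of unlisted genes, Herc3 around Nap1l5 had 0.74 and H13 around Mcts2 had up to 2.5. An activity summed over both parental alleles cannot show which allele carried it.

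**Figure D4:**
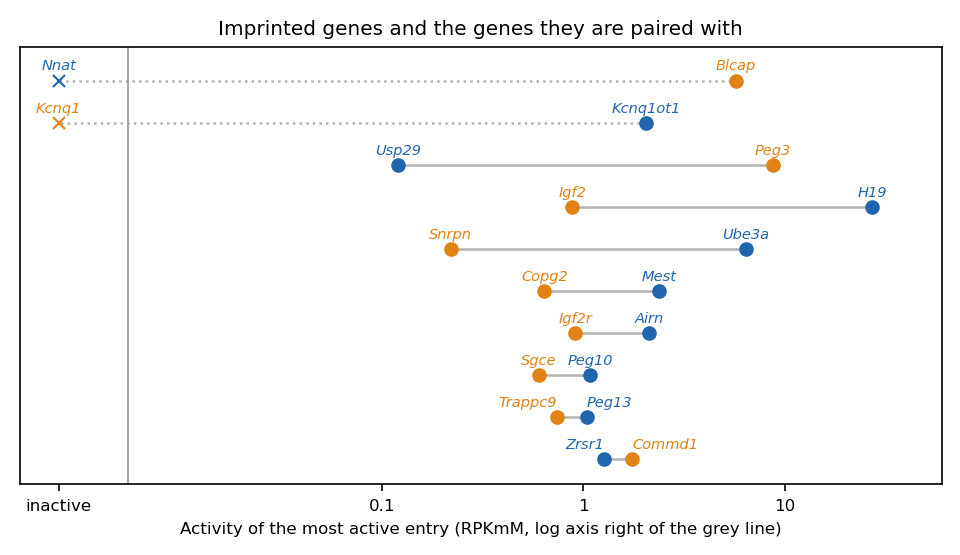
Activity of the most active entry (RPKmM, x axis, logarithmic right of the grey line) of 10 pairs of genes that overlap, adjoin or, like Ube3a and Snrpn, lie apart in a cluster, with the 2 pairs that hold an inactive gene at the top and the others below by falling ratio. Blue and orange tell the genes of a pair apart and have no other meaning, crosses mark inactive genes, and dotted lines join pairs without a ratio. Peg3 at 8.71 and Usp29 at 0.12 are the farthest apart of the pairs with both genes active, and Zrsr1 at 1.27 and Commd1 at 1.74 the closest.

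Entries of the same gene can differ in their start, their end or both, and so in the stretch that is counted. Of 9 members with several active entries at or above 0.01, Gnas (5.65-fold between highest and lowest), Snrpn (4.40), Igf2 (2.59) and Trappc9 (2.06) spread most, Airn (1.47), Mest (1.45) and Ube3a (1.14) less, and Ddc and Slc22a18 not at all at this rounding. Over 2273 genes of the table with several active entries the median was 1.10, the 90th percentile 2.03 and the 95th 2.79. Gnas and Snrpn thus lay above the 95th percentile and Igf2 above the 90th, within the bounds that rounding allows (3.91 to 5 for Snrpn and 2.54 to 2.64 for Igf2). The bounds for Trappc9, 2.01 to 2.10, hold the 90th percentile.

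Among other genes reported as imprinted in mouse, chosen as a list beside the members, 53 of 60 were found, of which 37 (69.8%) were active and 13 (24.5%) reached 1, beside 68.7% and 31.6% of all gene symbols. Their 50 active entries had a median of 0.495, beside 0.87 over all active entries. The share of active genes was thus near that of the table. The 5 most active were Xist, the RNA that silences the X chromosome, at 107.15, Blcap at 5.7, Nespas at 3.09, Nap1l4, a histone chaperone gene beyond Slc22a18, at 2.84, and Ago2, an Argonaute near Peg13, at 2.74. Xist is imprinted only in extraembryonic and early embryonic tissue.

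Of a list of DNA methylation, chromatin and imprint factors, with enzymes that remove methylation among them, 24 of 27 genes (88.9%) were active and 17 (63%) reached 1, beside 68.7% and 31.6% of all gene symbols. Their active entries had a median of 2.04, beside 0.87 over all active entries. The most active were Trim28, the corepressor recruited by ZFP57, at 8.58, Zfp445, a zinc finger protein that protects imprints, at 5.73, and Setdb1, a histone H3 lysine 9 methyltransferase, at 5.31. Ctcfl, Dnmt3l and Dppa3, which act in germ cells or the early embryo, were inactive. All other genes of this list were active, from 0.19 upwards.

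The surroundings of the clusters were not silent. Within 250 kb of the outermost member, or inside the clusters, lay 100 further listed genes, of which 75 (75%) were active and 33 (33%) reached 1, beside 68.7% and 31.6% of all gene symbols, so that they were much like the table as a whole. The inactive members therefore lay among genes of which most were active, other than at Dlk1 to Dio3, where 1 of 2 neighbours was active. Several of the 100 genes are also on the list of other imprinted genes, such as Blcap, Nespas, Nap1l4, Copg2, Cdkn1c, Th and Plg. They were counted in both sets, so the 100 are not a set without imprinted genes.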

How the data were processed

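Nuclear run-on RNA of 2 libraries of untreated C2C12 myoblasts was sequenced. According to the methods and the submitters' processing notes, reads were processed with CASAVA 1.8 and mapped to mm9 with Bowtie2, failed reads were trimmed and remapped, uniquely mapped reads were kept, reads at rRNA and tRNA repeats were removed and the libraries were pooled. The values the authors deposited are in RPKmM, gene body reads scaled to mappable length and library size, where inactive entries hold a word, and are rounded to 2 decimals for genes of at least 2 kb on autosomes 1 to 19 and X. Unique mapping and repeat removal can leave parts of a gene body uncounted. Of the active entries 154 are listed at 0, 3 of them of members. RefSeq entries of a gene share reads.

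From these values counts, medians and ratios over entries were computed with Python 3.11.15, numpy 2.4.6 and pandas 2.3.3, and plots with matplotlib 3.10.9. The summary step was tested on simulated data. Positions are those of GENCODE vM1 (mm9), which held 37 of the 39 genes by symbol, not Kcnq1ot1 and Peg13, and only 2610 bases of Usp29. Promoter and microRNA sequences are RefSeq's in GRCm38.p6, and no coordinates were converted between builds. Nothing was tested across genes, which are not replicates. The genes named are every member, the genes of the pairs, the 5 most active other imprinted genes, the 3 most active and all inactive imprint regulators, and the nearest listed genes beside the Dlk1, H19 and Igf2r clusters. Markers of cell types were named as a check, and Cdkn1c, Snurf, Snhg14 and Ipw fall outside this rule. Members and gene lists were chosen with earlier results of these data known. Parental alleles are textbook assignments. Alternatives were a single entry per gene, entries of at least 0.01, genes of at least 10 kb, autosomes, geometric means with pseudocounts of 0.01 or 0.001, and leaving out a cluster. Depth per library is not given in the sources used here.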

Additional observations from a re-analysis of the deposited data

How the results depend on the processing

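Of 50 alternative values for 7 results, 40 stayed within 1.5 times the main value and 10 did not. With a single entry per gene, its most active or the mean of its active entries, 24 entries were active in place of 47, and 12 in place of 23 reached 1 RPKmM, by construction, since fewer entries were counted. The median of maternally expressed genes rose with either choice from 0.71 to 2.69, because Trappc9 then counted once and not 5 times, while that of paternally expressed genes was 0.96 or 0.831, which turned their order. By their most active entry and without Ube3a the maternal median was 0.91, and without Ube3a and Trappc9 2.69, both chosen after seeing the data. The geometric mean of active members was 0.597 with a pseudocount of 0.001, and that of paternally expressed genes was 0.478 with 0.01 and 0.452 with 0.001, against medians of 0.91 and 0.805. That of maternally expressed genes was 0.766 and 0.629, above the paternal values, so this setting turned the order too; the cause was not tested. The ratio of members over other entries ranged from 0.810 without Gnas to 1.22 without the H19-Igf2 cluster, an alternative chosen after seeing the data. The restriction to genes of at least 10 kb kept 28 members. No paired analysis was possible because the 2 libraries were pooled into a single value per entry, and leaving out a replicate was not run for the same reason. Rounding limits activities near 0.01, and read numbers per entry, which would limit low values, were not estimated.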
